A study of Mus musculus with 20 samples.

Results

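The comparison described here set 2 pairs of sorted neural progenitor populations of the newborn mouse brain against each other, batch by batch. BNAP/GRP1 and GRP2/MP3 formed the CD140a- pair, and GRP3 and PFMP the CD140a+ pair. Each population had 4 libraries, 1 from each of batches 1 to 4, so that 16 of the 20 libraries of the series entered and the 4 neural stem cell (NSC) libraries did not. In every batch, the mean log2(RPKM + 1) of the 2 CD140a- libraries was set against that of the 2 CD140a+ libraries (RPKM, a read count divided by gene length and by the size of the library). A positive difference therefore means a higher level in the CD140a- pair. A gene entered the test if 4 or more of the 16 libraries reached 1 RPKM, as 22503 of 45705 genes did.

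By the labels and the study's methods, all cells came from the periventricular tissue of Swiss Webster pups at postnatal day 5, with no treatment. All pups of a litter, males and females, were pooled. The batch numbers come from the labels alone, and each batch was assumed to be an independent experiment. Which litters entered a batch is not stated. The 4 progenitor gates shared NG2 and the lack of CD133. BNAP/GRP1 was CD140a- and CD15+ (LeX), GRP2/MP3 was CD140a- and CD15-, GRP3 was CD140a+ and CD15-, and PFMP was CD140a+ and CD15+. The names stand for bipotential neuronal-astrocytic progenitors (BNAP), glial-restricted progenitors (GRP), multipotential progenitors (MP) and the multipotential cells that respond to platelet-derived and fibroblast growth factors (PFMP). The antigens do not part BNAP from GRP1 or GRP2 from MP3, no antigen particular to blood or vessel cells is named for the gates, and NG2 is also carried by pericytes. PolyA RNA was amplified before sequencing.

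Totals of RPKM ran from 955067 to 2407640 per library, 20116 to 39689 genes were above 0, and the read totals behind them were not given, so no counting interval can be set on a value. Batch 3 stood apart: among genes with a mean of at least 100 RPKM there, the median ratio of the highest to the lowest of its 4 libraries was 1.09, against 4.07, 4.88 and 10.5 in batches 1, 2 and 4, and its libraries carried globin genes and genes of lung cells at levels given further on, while Cx3cr1, P2ry12, Olig2 and other defining markers of microglia and OPCs were low in all 4 gates. Whether the libraries of batch 3 hold the labelled cells was not tested, and each value over 4 batches includes them. BNAP/GRP1 4, the BNAP/GRP1 library of batch 4, also stood apart, with a median of 11.2 RPKM over the genes tested where the median library had 2.51, and the most frequent ratio between low values put its estimated depth at 0.0395 of that of BNAP/GRP1 1, the lowest estimate of the 16 libraries. Results are therefore given for all 4 batches, for batches 1, 2 and 4, and for batch 3 alone.

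Microglia are the resident macrophages of the brain. They arise from the yolk sac, depend on the CSF1 receptor and the transcription factor PU.1, and clear synapses and dying cells through complement, Fc and TREM2 receptors that signal through the adaptors TYROBP and FcRγ. Oligodendrocyte progenitor cells (OPCs) arise from the ventricular zones, respond to platelet-derived growth factor through PDGFRα (CD140a), carry the NG2 proteoglycan, and depend on OLIG2 and SOX10. They are the source of the myelinating oligodendrocytes.

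To show regulatory sequence beside the members with the highest mean RPKM over the 16 libraries, the promoters (250 bases before to 50 after the start) of the highest microglia surface genes and the highest OPC membrane genes with an entry are given from RefSeq on GRCm38.p6, 5′ to 3′ on the strand of the gene. Laptm5 encodes a lysosomal membrane protein of blood cells (chr4:130913066-130913365, plus strand), Cd53 a tetraspanin of leukocytes (chr3:106790100-106790399, minus strand), Pdgfra the CD140a antigen itself (chr5:75152001-75152300, plus strand) and Ptprz1 a receptor phosphatase of glial progenitors (chr6:22875252-22875551, plus strand). Capitals mark the letters searched on both strands: GAGGAA and GAGGAAGT for PU.1, ACAAAG and ACAATG for SOX factors, and the E-boxes CAGCTG and CATCTG. The shorter PU.1 motif lies within the longer one, and a match on the other strand is printed as its complement.
Laptm5: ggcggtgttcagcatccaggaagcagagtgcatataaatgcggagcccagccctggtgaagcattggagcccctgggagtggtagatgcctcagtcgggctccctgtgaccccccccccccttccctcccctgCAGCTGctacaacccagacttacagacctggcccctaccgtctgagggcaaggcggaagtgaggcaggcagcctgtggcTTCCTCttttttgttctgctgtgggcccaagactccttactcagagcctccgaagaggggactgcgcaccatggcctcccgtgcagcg
Cd53: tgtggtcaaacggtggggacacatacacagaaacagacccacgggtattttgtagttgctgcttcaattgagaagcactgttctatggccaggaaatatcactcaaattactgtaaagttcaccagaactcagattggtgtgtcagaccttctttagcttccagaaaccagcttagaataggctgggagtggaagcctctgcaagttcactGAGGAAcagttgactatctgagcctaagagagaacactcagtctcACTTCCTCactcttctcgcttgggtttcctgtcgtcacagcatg
Pdgfra: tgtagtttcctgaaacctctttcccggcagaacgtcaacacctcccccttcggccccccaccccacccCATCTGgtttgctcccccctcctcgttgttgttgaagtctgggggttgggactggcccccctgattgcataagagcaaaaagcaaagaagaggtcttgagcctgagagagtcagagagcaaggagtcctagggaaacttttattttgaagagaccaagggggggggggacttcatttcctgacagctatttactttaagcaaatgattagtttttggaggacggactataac
Ptprz1: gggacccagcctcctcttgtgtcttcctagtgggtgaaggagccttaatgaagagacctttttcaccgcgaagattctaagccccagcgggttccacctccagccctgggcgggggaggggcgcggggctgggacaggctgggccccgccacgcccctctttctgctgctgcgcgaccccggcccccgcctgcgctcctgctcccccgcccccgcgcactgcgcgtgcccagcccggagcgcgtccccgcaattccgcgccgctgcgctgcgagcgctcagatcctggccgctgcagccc

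Laptm5 and Cd53 held GAGGAA, which the Pdgfra and Ptprz1 windows did not hold, and Cd53 also held GAGGAAGT. Over the myeloid gene lists described below, 41 of 89 promoters (46.1%, for 74 of 104 genes with an entry) held GAGGAA, against 5 of 40 (12.5%, for 26 of 37 genes) over the OPC lists and 28.3% of all 32851 promoters. GAGGAAGT was in 10.1%, 2.5% and 3.2% of the same promoters. ACAAAG was in 21.3% of myeloid, 30.0% of OPC and 18.7% of all promoters, while ACAATG was in 12.4%, 12.5% and 12.6%. CAGCTG was in 23.6%, 22.5% and 16.3%, and CATCTG in 28.1%, 17.5% and 17.2%. These are matches of letters only, described without a test.

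The RNA of the sorting antigens was compared first. Pdgfra (ENSMUSG00000029231, chromosome 5 from 75152292 to 75198215 on GRCm38) was at 3.59, 3.47, 2.26 and 24.1 RPKM in batches 1 to 4 of BNAP/GRP1 and at 1.80, 5.23, 2.19 and 7.49 in GRP2/MP3. It reached 511.5, 803, 3.41 and 171.5 RPKM in GRP3 and 658.4, 239.8, 3.84 and 96.9 in PFMP. Both CD140a+ libraries lay above both CD140a- libraries in all 4 batches, but in batch 3 the 4 libraries differed by less than 2 RPKM. The gate selected on the protein, which does not fix the order of the RNA. The differences were -7.34, -6.38, -0.52 and -3.15.

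Of the other antigens, NG2 was shared by all 4 gates, yet its gene Cspg4 was at 93.2, 80.9, 0.245 and 11.7 RPKM in GRP3 and at 0.844, 0.249, 0.0362 and 8.49 in BNAP/GRP1. PFMP had 23.5, 145.5, 0.398 and 4.70 RPKM, and GRP2/MP3 5.91, 9.64, 0.0431 and 7.89. The difference was -3.75, -4.91, -0.34 and 0.11 in batches 1 to 4, so the gene was lower in the CD140a- pair in batches 1 and 2 and not in batch 4. Cspg4 was nevertheless called over batches 1, 2 and 4, and in 8 of 29 alternative settings of that fit. Prom1, the gene of CD133, differed by -0.54, 0.67, 0.32 and 0.37 and did not pass the test. Fut4 and Fut9 encode fucosyltransferases that can make the CD15 epitope, and neither was called (mean differences 0.34 and -1.32 over 4 batches).

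The working names of the pairs, microglia-rich and OPC-like, were met by canonical markers in batches 1 and 2, in part in batch 4, and not in batch 3. Cx3cr1, the fractalkine receptor of microglia, was at 231.3, 39.2, 0.478 and 10.7 RPKM in BNAP/GRP1 and at 101.4, 120.6, 0.931 and 19.9 in GRP2/MP3. GRP3 had 0.847, 0.233, 1.18 and 1.77 RPKM and PFMP 0.383, 0.875, 0.549 and 4.22. P2ry12, a purinergic receptor of resting microglia, was at 368.5, 64.7, 1.49 and 11.5 RPKM in BNAP/GRP1, 90.2, 1101, 1.22 and 60.7 in GRP2/MP3, and at most 13.1 in the CD140a+ libraries. In batch 4 its PFMP library was above BNAP/GRP1. Lhfpl3, a tetraspan membrane gene of OPCs, was at 306.7, 517.3, 1.17 and 134.5 RPKM in GRP3 and at 328, 101.1, 0.808 and 59.0 in PFMP, while the CD140a- libraries were at 21.6 or below.

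**Figure D1:**
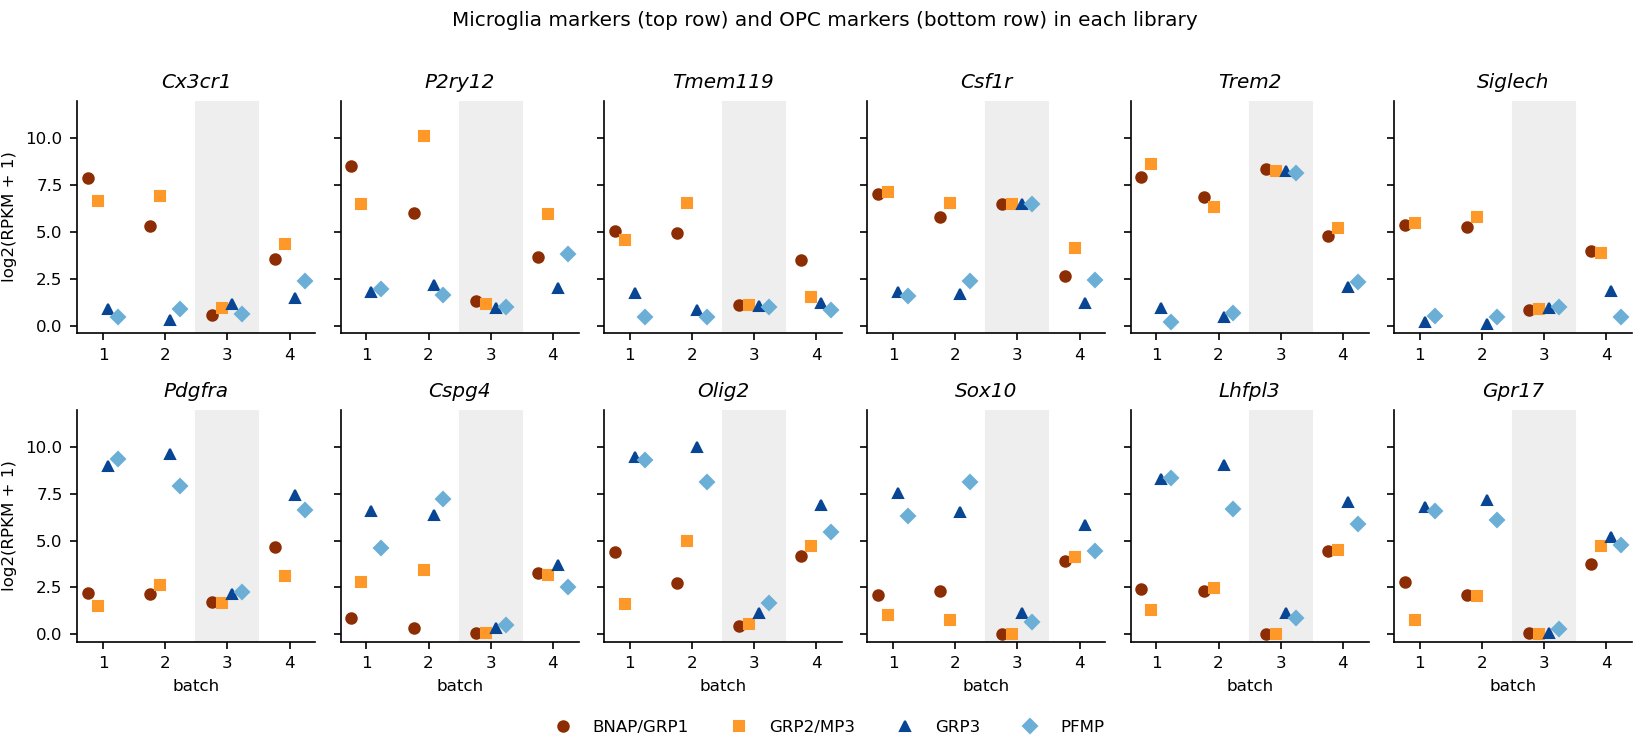
The level of 6 microglia markers (top) and 6 OPC markers (bottom) as log2(RPKM + 1) in each of the 16 libraries, by batch, with batch 3 on grey. Points of the CD140a- pair (circles and squares) lie above those of the CD140a+ pair (triangles and diamonds) for microglia markers in batches 1 and 2, for example Cx3cr1 at 231.3 against 0.847 RPKM in BNAP/GRP1 1 and GRP3 1, while in batch 3 the 4 points of each of these genes lie closer together than in the other batches.

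Across the whole table, no gene was called with all 4 batches (limma on the 4 batch differences, Benjamini-Hochberg adjusted p under 0.05): 0 of 22503 genes higher in the CD140a- pair (0.0%) and 0 higher in the CD140a+ pair (0.0%), with a smallest adjusted p of 0.159. At an unadjusted p under 0.05 there were 1652 and 1205. The same test on batches 1, 2 and 4 called 573 genes higher in the CD140a- pair (2.55%) and 377 higher in the CD140a+ pair (1.68%). Those calls were lost in several settings: without BNAP/GRP1 4 there were 0 and 0, without GRP3 4 there were 0 and 1, without batch 4 0 and 0, and with each batch's differences centred on the median gene 0 and 1. They were 323 and 192 without batch 1, 186 and 82 without batch 2, 251 and 150 without GRP2/MP3 4, 277 and 151 without PFMP 4, 357 and 210 without PFMP 2, 414 and 186 without GRP3 1, 472 and 236 without BNAP/GRP1 1, and 323 and 133 with no replicate block. An exact test over the signs of the differences cannot go below p = 0.125 with 4 batches or 0.25 with 3. The counts of called members below are therefore given beside a count that needs no model of the spread, the genes for which both libraries of a pair lay above both of the other in every batch. In batches 1, 2 and 4 this held for 612 genes in favour of the CD140a- pair (2.72%) and 423 in favour of the CD140a+ pair (1.88%), and in all 4 batches for 128 (0.569%) and 124 (0.551%). In bulk RNA, fewer cells of a type and less RNA per cell cannot be told apart.

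Of the 573 genes higher in the CD140a- pair, 440 were protein coding (76.8%), 79 belonged to the 7 macrophage lists given below (112 of their genes were tested) and 0 to the 3 OPC lists. Of the 377 higher in the CD140a+ pair, 341 were protein coding (90.5%, against 66.7% of all genes tested), 25 belonged to the OPC lists (37 tested) and 0 to the macrophage lists. The median absolute difference was 2.82 and 2.36, where that of all genes was 0.535. Batch 3, which did not enter that fit, had the same sign for 291 of the 573 (50.8%) and 279 of the 377 (74.0%), where 40.9% of all genes tested were above 0 and 44.6% below 0 in that batch and the rest were at exactly 0.

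**Figure D2:**
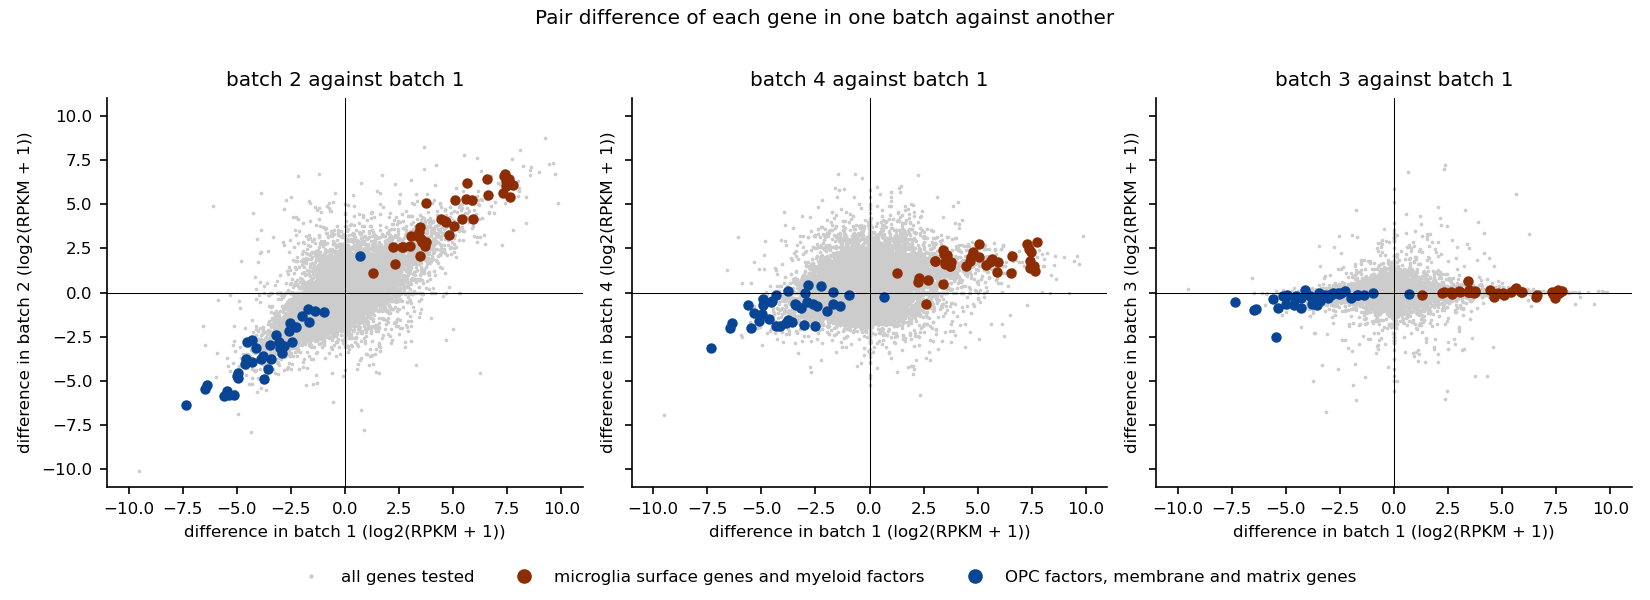
The pair difference of every gene tested, on the log2(RPKM + 1) scale, in batches 2, 4 and 3 (vertical axes) against batch 1 (horizontal axis), with microglia surface genes and myeloid factors in brown and OPC genes in blue. Microglia surface genes have medians of 5.87, 5.26, 1.70 and 0.01 in batches 1, 2, 4 and 3 and OPC membrane genes -4.14, -3.78, -1.50 and -0.28, and single genes depart from this, such as Olig1 at -2.50 in batch 3.

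Genes of the microglial surface and its secreted products showed the largest list median. All 23 were tested, all were positive over batches 1, 2 and 4, and 22 were called there (16 separated in each of these batches), with a median difference of 4.36, where all genes tested had 0.15. The batch medians were 5.87, 5.26, 0.01 and 1.70, against -0.17, -0.08, 0.00 and 0.76 for all genes, so that batch 4 stood 0.76 above 0 for genes at large. With all 4 batches, none of the 23 was called (0.0% of all genes). Slc2a5, the fructose transporter, was the member not called and was under 8 RPKM in every library.

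Laptm5, whose promoter is given above, was at 1434, 229, 427.1 and 15.9 RPKM in BNAP/GRP1 and 1112, 1239, 429.3 and 25.0 in GRP2/MP3. GRP3 had 7.78, 5.94, 432.5 and 2.34, and PFMP 4.85, 8.65, 413.6 and 4.53. The pairs did not overlap in batches 1, 2 and 4, and in batch 3 the 4 libraries were alike. The difference over batches 1, 2 and 4 was 5.26 ± 0.66 (limma SE, n = 3 batches, adjusted p = 0.000436). In limma this SE, like those given below, is drawn towards the spread of genes of similar level. The SE and the adjusted p therefore do not measure the spread of the 3 batch differences alone, which can be wider. Ccl2 and Spry1, for example, were called with almost no difference in batch 4. Trem2, the phagocytic receptor for lipids, was at 246.9, 116.3, 334.2 and 27.1 RPKM in BNAP/GRP1 and 392.3, 80.6, 299.8 and 36.2 in GRP2/MP3, and CD140a+ libraries outside batch 3 were between 0.126 and 3.96. Its difference was 7.74, 6.07, 0.08 and 2.84.

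P2ry13 and Tmem119 were the members of the list that were separated in all 4 batches, and in batch 3 their differences were 0.18 and 0.06. Csf1r, the receptor that microglia need to survive, was at 127.3, 55.3, 90.6 and 5.23 RPKM in BNAP/GRP1 and at 2.47, 2.17, 89.4 and 1.30 in GRP3. In batch 3 it lay between 88.4 and 90.6 RPKM in all 4 populations, whereas Cx3cr1, Siglech and Gpr34 were at 1.18 or below there.

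The transcription factors of the myeloid lineage followed. Of 14 tested, all were positive and 10 were called over batches 1, 2 and 4 (8 separated), with a median of 2.61 and batch medians of 3.43, 2.87, 0.04 and 1.75. Spi1, which encodes PU.1, was at 36.6, 22.8, 192 and 15.7 RPKM in BNAP/GRP1, 50.4, 14.2, 171.6 and 8.18 in GRP2/MP3, 0.156, 0.597, 189.4 and 2.83 in GRP3 and 0.527, 0.215, 180.5 and 1.56 in PFMP. Every CD140a- library of batches 1, 2 and 4 was above both CD140a+ libraries of its batch, and the difference was 3.60 ± 0.63 (limma SE, n = 3 batches, adjusted p = 0.00242). Irf8, a partner of PU.1, differed by 4.80, 3.25, -0.00 and 2.30. Sall1, a factor that marks microglia among macrophages, was at 34.2 and 37.9 RPKM in BNAP/GRP1 1 and GRP2/MP3 2, had differences of 2.22, 2.56, -0.02 and 0.59, and was not called (adjusted p = 0.1). Lyl1 was the factor separated in all 4 batches, by 3.46, 2.04, 0.17 and 2.18. Bhlhe41 and Batf3 were not called either.

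Fc receptors and the TYROBP and SYK pathway carry signals from antibody and lipid receptors into the myeloid cell. Of 17 genes tested (18 listed), 12 were called and 14 were separated in batches 1, 2 and 4, and the median difference was 2.85. Tyrobp (ENSMUSG00000030579, chromosome 7 from 30413760 to 30417585), the adaptor of TREM2, was at 2189, 1399, 1436 and 16.02 RPKM in BNAP/GRP1, 6797, 880.7, 1464 and 64.8 in GRP2/MP3, 3.82, 4.55, 1375 and 3.70 in GRP3 and 4.18, 7.50, 1406 and 12.1 in PFMP. It was separated in all 4 batches, but in batch 3 by 0.06 only. Its difference was 6.34 ± 0.84 over batches 1, 2 and 4 (limma, adjusted p = 0.000436) and 4.77 over all 4 (adjusted p = 0.159). Fcer1g, the FcRγ chain, was at 6018 RPKM in GRP2/MP3 1 and 2464 in BNAP/GRP1 1, with differences of 9.45, 7.28, 0.07 and 1.77. In batch 4 its PFMP library (40.2 RPKM) was above BNAP/GRP1 (25.4 RPKM). The kinases of the pathway differed less: Syk by 2.17, 1.59, 0.09 and 1.58 and Btk by 2.23, 1.77, -0.07 and 0.55, and neither was called.

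Complement and phagocytosis genes had a median difference of 3.62, with 14 of 17 called and 7 separated in batches 1, 2 and 4. C1qa, C1qb and C1qc encode the chains of C1q, the first component of the classical pathway. C1qb was at 1590, 482.2, 964.9 and 8.67 RPKM in BNAP/GRP1, 1930, 407.8, 931.9 and 76.7 in GRP2/MP3, 1.895, 0.886, 982 and 3.73 in GRP3, and 0.559, 8.44, 895.5 and 15.8 in PFMP. The pairs stood far apart in batches 1 and 2, while in batch 4 PFMP was above BNAP/GRP1. Ctss, a lysosomal protease of microglia, differed by 7.55, 6.56, 0.03 and 1.896. Lyz2, the lysozyme of macrophages and neutrophils, was at 1200, 100.4, 22450 and 12.1 RPKM in BNAP/GRP1 and 2.17, 2.76, 22530 and 3.91 in GRP3, so that its highest values were those of batch 3 in both pairs. C3, Axl and Cd36 were not called, and C3 outside batch 3 was at 3.98 RPKM or below.

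Cytokines and chemokines had a median of 3.96, with 13 of 19 called and 9 separated. Spp1, osteopontin, was at 16260, 245.4, 1058 and 15.4 RPKM in BNAP/GRP1, 2925, 3302, 1001 and 130.2 in GRP2/MP3, 11.9, 14.9, 1051 and 3.75 in GRP3 and 3.34, 45.7, 966.2 and 4.54 in PFMP. Its difference was the largest of the named genes in batch 1 (9.85) and was 5.05 and 3.17 in batches 2 and 4. Tnf was at 27.1, 145.6, 1247 and 10.7 RPKM in BNAP/GRP1 and 35.8, 426.1, 1235 and 7.14 in GRP2/MP3, against at most 1.501 in CD140a+ libraries outside batch 3. Ccl2, a monocyte chemokine, differed by 6.12, 7.6, -0.05 and 0.01. In batch 4 it was at 222.3 RPKM in PFMP and 17.5 in BNAP/GRP1. The interleukins Il1b (1.10, 3.17, -0.02 and 1.23) and Il1rn (1.84, 2.46, -0.01 and 1.80) were not called, and Il1b was at 4094 to 4272 RPKM in the 4 libraries of batch 3.

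Toll-like receptors and antigen presentation genes showed a smaller median, 1.87, with 4 of 13 called (Tlr1, Tlr2, Tlr7 and Cd14) and 8 separated in batches 1, 2 and 4. Tlr7, which senses single-stranded RNA, was separated in all 4 batches, by 4.74, 3.25, 0.11 and 1.85. H2-Aa, an MHC class II chain, was at 0.871, 0.0651, 1521 and 12.7 RPKM in BNAP/GRP1 and at 0, 0.612, 1524 and 2.36 in GRP3. No class II gene was called, although H2-Ab1 was separated in all 4 batches. Border-associated macrophages line the meninges and vessels, and of their 10 markers 9 were tested, 4 were called (Mrc1, Pf4, Folr2 and Stab1) and 3 were separated, with a median of 2.13. The batch medians of this list were 3.7, 1.85, 0.08 and 0.92, where all genes tested had 0.76 in batch 4. Pf4 was at 2365 RPKM in GRP2/MP3 1 and at 85.8 in BNAP/GRP1 1, and Lyve1 at 26.1 and 0.926, and within batch 1 the list was lower in BNAP/GRP1 than in GRP2/MP3 by a median of 2.46 (difference -2.46). The median within batches 2, 3 and 4 was -1.10, 0.02 and 0.23.

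**Figure D3:**
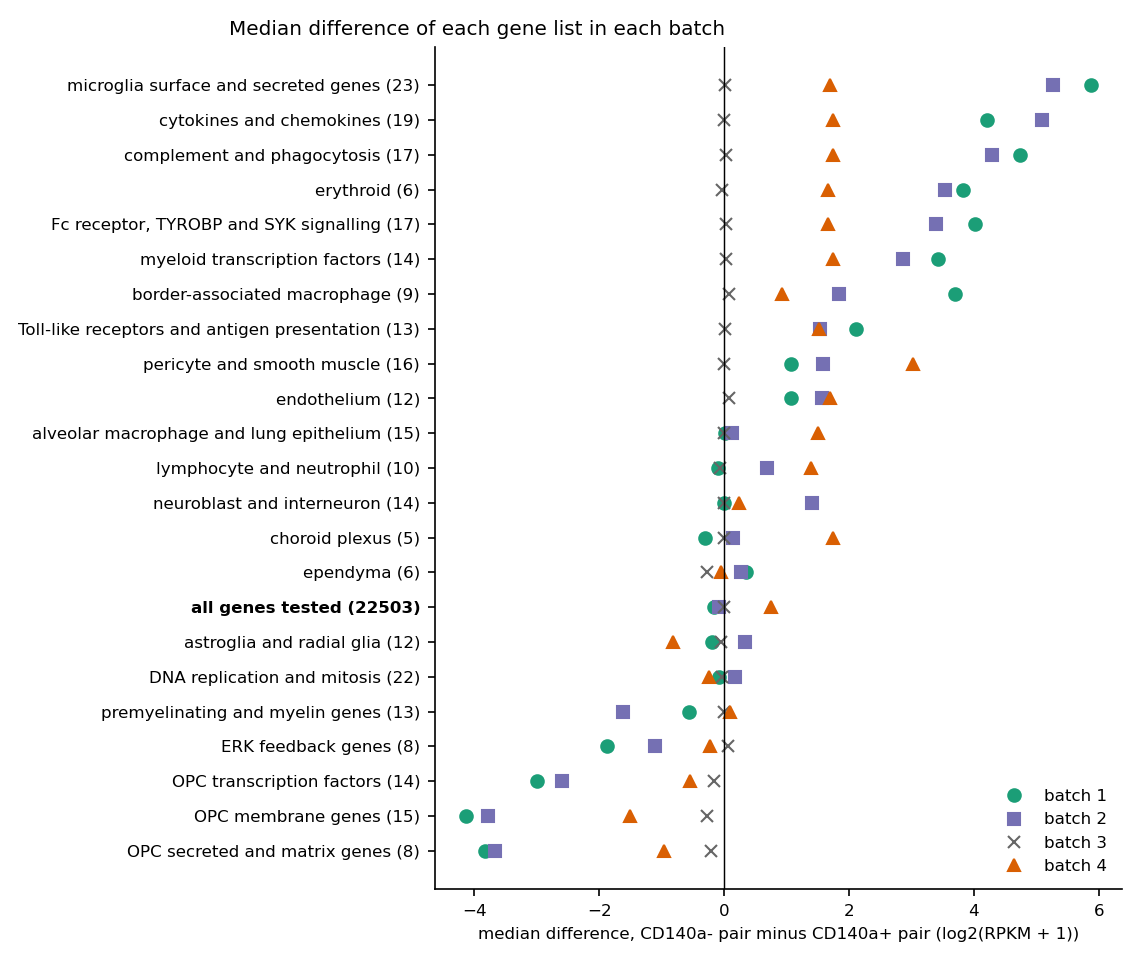
The median pair difference (log2(RPKM + 1), horizontal axis) of each gene list (rows, with the number of genes tested) in batches 1 to 4. Macrophage lists lie to the right and OPC lists to the left in batches 1 and 2 (5.87 and -4.14 for microglia surface and OPC membrane genes in batch 1), closer to the centre in batch 4, where all genes tested had a median of 0.76, and near 0 in batch 3.

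On the other side, OPC transcription factors were higher in the CD140a+ pair. Of 14 tested, 13 were negative and 7 were called over batches 1, 2 and 4 (Olig1, Olig2, Sox10, Sox8, Nkx2-2, Myt1 and Sox6), with a median of -1.99 and batch medians of -3.00, -2.60, -0.17 and -0.55. Olig2, the bHLH factor that specifies OPCs, was at 702.8, 1025, 1.18 and 118.4 RPKM in GRP3 and 622.1, 276.8, 2.19 and 42.9 in PFMP. It was at 19.8, 5.63, 0.340 and 17.4 RPKM in BNAP/GRP1 and 2.04, 29.9, 0.468 and 25.5 in GRP2/MP3, so that the pairs did not overlap in any batch. The difference was -4.44 ± 0.62 over batches 1, 2 and 4 (limma SE, n = 3 batches, adjusted p = 0.000522).

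Olig1, its neighbour on chromosome 16, was at 1064, 896.5, 7.70 and 240.2 RPKM in GRP3 and 489.6, 1311, 7.54 and 109.7 in PFMP. BNAP/GRP1 had 33.6, 24.1, 0.926 and 25.3 RPKM and GRP2/MP3 6.63, 20.03, 0.211 and 64.2. It was separated in all 4 batches, and its difference in batch 3, -2.50, was larger than that in batch 4, -1.98. Sox10, which switches on myelin genes, differed by -5.37, -5.81, -0.88 and -1.14 and was listed at 0 in both CD140a- libraries of batch 3, where GRP3 and PFMP had 1.19 and 0.545 RPKM. The 4 factors separated in all batches were Olig1, Olig2, Sox10 and Sox6. St18 had a positive difference (0.69, 2.05, -0.06 and -0.26) and was not called.

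OPC membrane genes had a median of -2.97, and 15 of 15 were negative over batches 1, 2 and 4, 11 were called and 10 were separated there. Their batch medians were -4.14, -3.78, -0.28 and -1.50. In batch 3, 14 of the 15 were negative, and Pdgfra, Lhfpl3, Ptprz1, Cacng4 and Gpr17 were separated in all 4 batches. The gate selected on the protein of Pdgfra, which is a member of this list and no finding. Cspg4, also among those called, encodes NG2, the antigen shared by all 4 gates. Ptprz1, whose promoter is given above, was at 333.4, 509.1, 1.10 and 164 RPKM in GRP3 and 336.6, 169.3, 1.62 and 150.6 in PFMP. BNAP/GRP1 had 64.8, 34.6, 0.510 and 27.8 and GRP2/MP3 3.395, 56.5, 0.115 and 61.7, and the difference was -2.97 ± 0.47 (limma SE, n = 3 batches, adjusted p = 0.00127). Gpr17, a receptor of progenitors that commit to become oligodendrocytes, was at 110.7, 141.8, 0.0392 and 35.0 RPKM in GRP3 and at 5.89, 3.32, 0.0238 and 12.4 in BNAP/GRP1. The AMPA receptor subunits of the list differed by -4.13, -3.12, 0.14 and -1.90 (Gria3, called) and -2.61, -2.15, -0.04 and -0.67 (Gria4, not called). Megf11, Ptpro and Dscam were the others not called.

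Secreted and matrix genes of OPCs had a median of -3.04, with 7 of 8 called (all but Tnr) and 2 separated in batches 1, 2 and 4. C1ql1, a C1q-like ligand of OPCs, was at 188.5, 87.4, 0.435 and 34.5 RPKM in GRP3, 72.3, 253, 0.186 and 12.1 in PFMP, 2.24, 2.75, 0 and 19.9 in BNAP/GRP1 and 0.801, 0.772, 0 and 7.14 in GRP2/MP3. The pairs were far apart in batches 1 and 2, and in batch 4 BNAP/GRP1 lay above PFMP. Bcan, the brevican core protein, was the member separated in all 4 batches, by -3.78, -3.59, -0.64 and -1.55. Ncan, neurocan, was at 1697 and 3331 RPKM in GRP3 and PFMP of batch 4 and at 2540 in GRP2/MP3 of batch 4, against at most 53.5 in any library of the other batches.

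Outside the lists, the largest differences among called genes with an official name and the same sign in all 4 batches included, in the CD140a+ pair, Cntn1, an adhesion molecule of axons and glia. It was at 136.8, 228.4, 0.602 and 241.1 RPKM in GRP3, 532.6, 102.4, 0.744 and 101.8 in PFMP, 5.62, 4.98, 0.0328 and 29.1 in BNAP/GRP1 and 1.86, 4.14, 0 and 29.2 in GRP2/MP3. Scrg1 was at 563.2, 219.4, 1.99 and 298.2 RPKM in GRP3 and 23.1, 38.6, 0.0174 and 32.3 in BNAP/GRP1. Both were separated in every batch, and their differences over batches 1, 2 and 4 were -4.38 and -3.76 (limma, adjusted p = 0.000437 and 0.000574). In the CD140a- pair, Cd52 and Bcl2a1b, a surface glycoprotein and a survival factor of leukocytes, were chosen by the same rule, with differences of 5.87 and 5.78. Bcl2a1b was at 1496, 938.8, 618.5 and 10.1 RPKM in BNAP/GRP1 and 8.44, 8.14, 542.1 and 5.59 in PFMP. It has near-identical paralogs, so its value depends on how reads were assigned among them.

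Later genes of the lineage differed less than OPC genes. Of 13 premyelinating and myelin genes tested (15 listed), 2 were called, both higher in the CD140a+ pair: Bcas1 (-3.06, -4.07, -0.47 and -1.04) and Ugt8a (-3.31, -3.44, 0.11 and -0.96), which mark newly forming oligodendrocytes. The median was -0.90, and it was -0.45 without PFMP 4, -0.55 without BNAP/GRP1 4 and -0.48 without batch 2. Genes that growth factor receptors induce through ERK, feedback genes and the cyclin gene Ccnd1, had 3 of 8 called and a median of -1.28. Those called were Ccnd1 (-1.76, -2.46, 0.21 and -1.60), Spry2 (-1.98, -1.05, -0.20 and -1.88) and Spry1 (-4.79, -3.71, 0.03 and 0.01). Dusp6 was not called (0.15, 0.49, 0.13 and 0.09).

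Markers of other cell types also moved with the pairs. Pericyte and smooth muscle genes were positive for 16 of 16 tested genes over batches 1, 2 and 4 (19 listed), and 6 were called (Rgs5, Higd1b, Pdgfrb, Kcnj8, Ndufa4l2 and Atp13a5), with a median of 1.78. This was carried by GRP2/MP3: Rgs5, a pericyte regulator of G proteins, was at 120.4, 155.2, 0.251 and 6493 RPKM there and at 4.15, 8.45, 0.173 and 119 in BNAP/GRP1. Within the CD140a- pair the list was lower in BNAP/GRP1 by medians of -2.99, -2.24, 0.00 and -1.92. Without the BNAP/GRP1 population its median over batches 1, 2 and 4 was 3.06. Endothelial genes had 3 of 12 called (Cldn5, Egfl7 and Esam) and a median of 1.74, with Cldn5 at 53.8, 53.7, 0.335 and 49.8 RPKM in GRP2/MP3 and 2.86, 3.14, 0.222 and 9.12 in BNAP/GRP1. The list as a whole differed from Cldn5 in batch 4. Its median of BNAP/GRP1 minus GRP2/MP3 was -2.18, -2.27, -0.11 and 0.99 in batches 1 to 4, where all genes tested had 1.41 in batch 4. The part of pericyte and endothelial genes in the other differences was not tested.

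Erythroid genes, 6 of 8 tested, had 4 called, the globins Hba-a1, Hba-a2, Hbb-bs and Hbb-bt, with a median of 3.08. Summed over the list they came to 862.4, 3720, 236900 and 118.3 RPKM in BNAP/GRP1, 26510, 4570, 252700 and 2755 in GRP2/MP3, 330.2, 99.3, 246200 and 105.2 in GRP3 and 230, 755, 251700 and 286.2 in PFMP. The globins are near-identical copies whose reads may be shared. Genes of alveolar macrophages and lung epithelium, 15 of 16 tested, had 1 called (Ear2) and a median of 0.68, which was 0.20 without BNAP/GRP1 4, 1.16 without GRP2/MP3 4 and 0.04 without batch 4. They summed to 2724 to 2787 RPKM in batch 3 and to 2.26 to 204.3 elsewhere. Lymphocyte and neutrophil genes had 1 of 10 called, S100a8, and choroid plexus genes 1 of 5, Enpp2, which was higher in the CD140a+ pair (-3.90, -4.79, 0.06 and -1.83) and is also expressed by cells of the oligodendrocyte lineage.

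Neuroblast, astroglial, ependymal and proliferation lists held no called gene in limma's test: 0 of 14, 0 of 12, 0 of 6 and 0 of 22 over batches 1, 2 and 4, with medians of 0.59, 0.00, 0.20 and -0.04. Pcna, the replication clamp, was at 845.7 and 1443 RPKM in BNAP/GRP1 1 and GRP2/MP3 2, yet at 154.8 and 197.8 in GRP2/MP3 1 and BNAP/GRP1 2. Dlx1, an interneuron factor, differed by 0.03, 2.91, -0.01 and 0.13. Fabp7, a fatty acid binding protein of radial glia, was at 10170, 14730, 196.1 and 3300 RPKM in GRP3 and at 3102, 4424, 196.5 and 327.1 in BNAP/GRP1, with a difference of -2.37 that was not called.

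**Figure D4:**
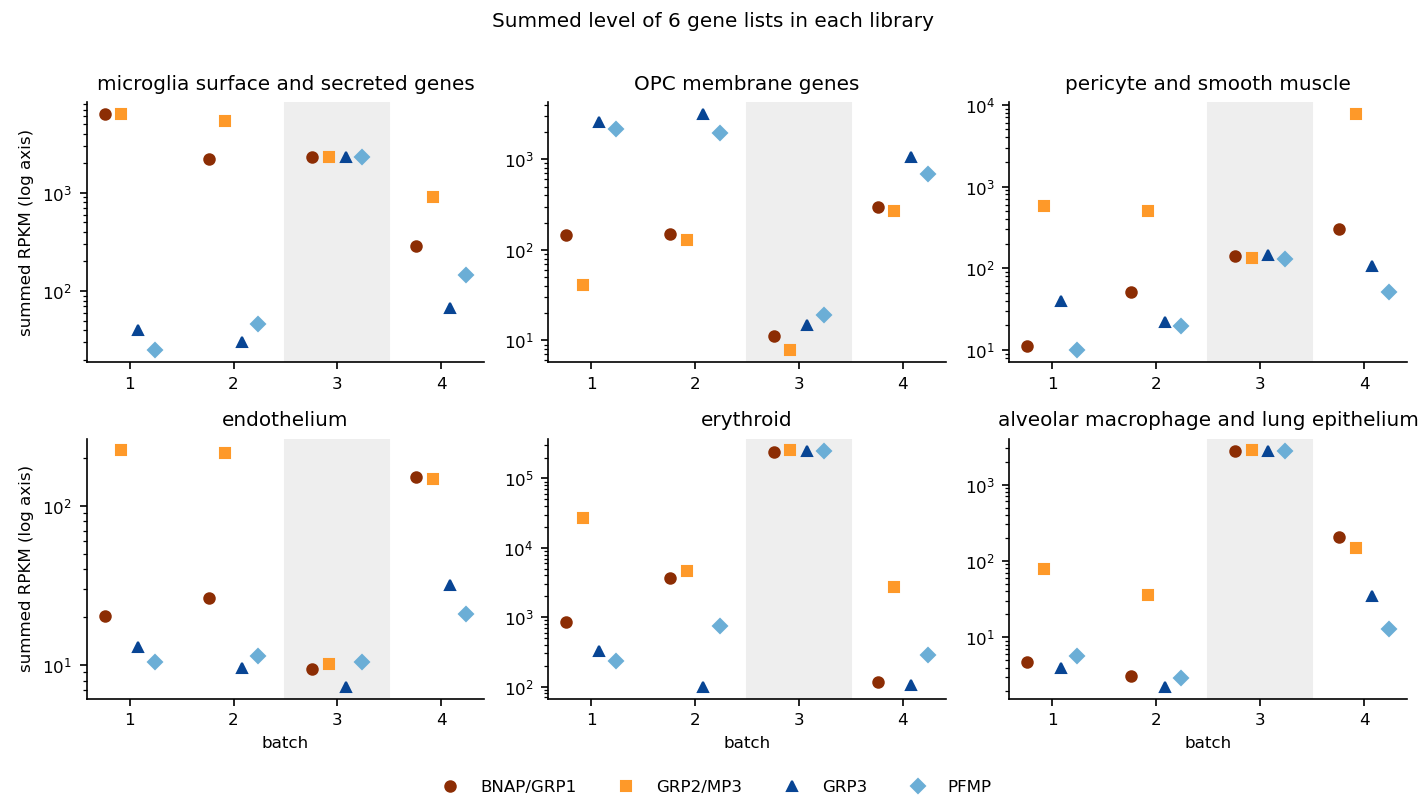
The summed RPKM (log axis) of 6 gene lists in each library, by batch, with batch 3 on grey. Microglia genes of batch 1 come to 6331 and 6352 RPKM in the CD140a- pair and 40.5 and 24.9 in the CD140a+ pair, pericyte genes are highest in GRP2/MP3 of batches 1, 2 and 4, and batch 3 carries the highest erythroid and lung sums in all 4 populations.

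Batch 3 is therefore described on its own. The summed microglia surface genes came to 2345, 2301, 2332 and 2297 RPKM in BNAP/GRP1, GRP2/MP3, GRP3 and PFMP, a spread far below that of the other batches, in which the CD140a+ libraries had 24.9 to 144.9. Myeloid genes shared by all macrophages were high in all 4 libraries, among them Lyz2 (22020 to 22690 RPKM), Cd74 (2213 to 2278 RPKM) and Tyrobp (1375 to 1464 RPKM). Of the markers that set microglia apart, Cx3cr1, P2ry12, Tmem119 and Siglech were at 1.49 RPKM or below. Scgb1a1, a secretoglobin of airway club cells, was at 904.4 to 964.8 RPKM. OPC membrane genes came to 11.2, 7.77, 14.9 and 19.3 RPKM, under the lowest value of any other batch (40.5), and both CD140a+ libraries were still above both CD140a- libraries. In batch 3, 86 of all genes tested differed by more than 2 and 89 by less than -2, against 1138 and 1224 in batch 1.

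In batch 4 the 3 OPC lists and the macrophage lists named above had medians of the same sign as in batches 1 and 2, whereas pericyte genes had their largest median there (3.02, against 1.08 and 1.58) and premyelinating genes turned from -0.57 and -1.62 to 0.10. Over all genes its median difference was 0.76, with 1608 genes above 2 and 177 below -2, and BNAP/GRP1 4 was the library with the highest median level. Its microglia surface genes came to 290.1, 910.2, 66.8 and 144.9 RPKM in the 4 populations in the order above, and its OPC membrane genes to 298.8, 269.1, 1050 and 685.1. The pairs thus did not overlap in either sum, although the CD140a- pair had more OPC and less microglial signal than in batches 1 and 2, where its OPC sums were between 40.5 and 150.9.

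Whether the 2 populations of a pair were the most alike depended on the batch. In batch 1 the Pearson r of log2(RPKM + 1) over the genes tested was 0.869 and 0.884 within the pairs and 0.676 to 0.844 between them. In batch 2 it was 0.685 for BNAP/GRP1 with GRP2/MP3 and 0.834 for GRP3 with PFMP, and 0.647 to 0.843 between pairs. Batch 4 had 0.398 and 0.798 within and 0.269 to 0.875 between, the lowest values being those of BNAP/GRP1 4, and batch 3 had 0.965 to 0.97 in every combination. Genes are not independent replicates, so these are descriptions.

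**Figure D5:**
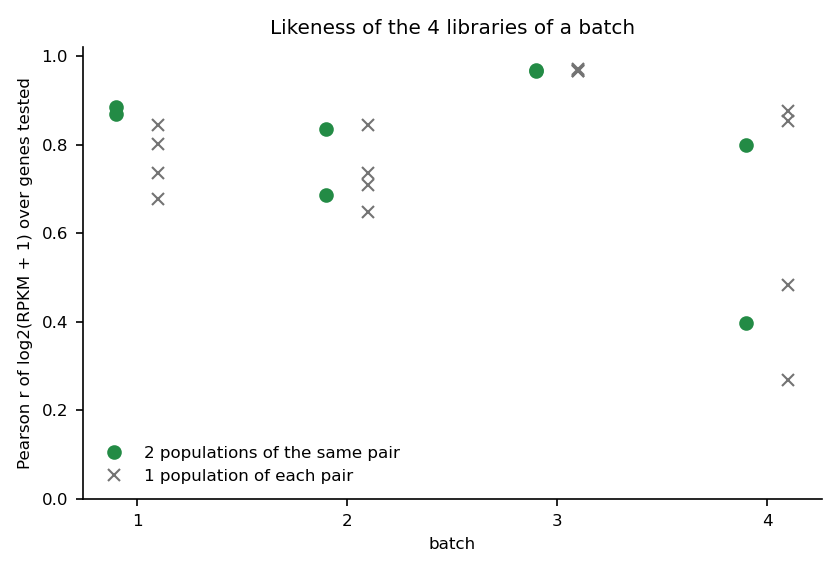
Pearson r of log2(RPKM + 1) over the genes tested for every combination of 2 libraries of a batch (vertical axis) in batches 1 to 4. The combinations within a pair (circles) lie above those between pairs (crosses) in batch 1 (0.869 and 0.884 against at most 0.844), and not in batches 2, 3 and 4.

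The genes that the study placed in its protein networks divided between the pairs. Of 19, 5 were called higher in the CD140a- pair (Spi1, Tnf, Irf8, Ccl2 and Cx3cr1) and 5 in the CD140a+ pair (Olig2, Sox8, Ccnd1, Fyn and Prkcq) over batches 1, 2 and 4. The study chose them on these samples, so their direction is not independent evidence. Fyn, a Src family kinase of oligodendrocytes, had a difference of -1.75, and Prkcq, protein kinase C theta, of -2.40. Plcg2 and Syk, which act in Fc receptor signalling, had 1.81 and 1.78 and were not called (limma, adjusted p = 0.0835 and 0.122). Tcf12, Etv1, Etv5, Pik3r1, Lhx6 and Igf2bp3 were not called either, and Lhx6 and Igf2bp3 changed sign when single libraries were left out.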

How the data were processed

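The authors deposited a table of RPKM with 45705 genes and 20 libraries. Per the submitters' processing notes, reads were handled with FastQC 0.11.9, cutadapt 3.4, STAR 2.6.1, Salmon 1.9.0 and DESeq2 1.26.0 on GRCm38. Gene lengths, read totals and annotation are not given in the sources used here. A further 26 columns were empty. Values were used as log2(RPKM + 1), unscaled. 1 difference per batch was tested against 0 with limma 3.58.1 in R 4.3.3 (eBayes with a trend, Benjamini-Hochberg over 22503 genes, threshold 0.05), in all 4 batches and in batches 1, 2 and 4. The study used DESeq2 on counts, which RPKM do not allow. The labels give the batch numbers, which were assumed to be the study's independent experiments, and libraries were paired by them. The median correlation of deviations from population means was 0.244, 0.23, 0.796 and 0.538 within batches 1 to 4. Between batches it was -0.25, with a range of -0.656 to 0.612. Taking out the population means itself lowers the values between batches, so these correlations cannot decide whether the pairing holds. The members, lists and named genes (sorting antigens, the 8 largest differences each way among called genes with an official name and the same sign in all 4 batches, the 4 highest members of each list, network genes) were chosen with earlier results of these data known. Clec7a, on 2 rows, was left out. On simulated data with 200 genes shifted by 6 on the log2 scale, the test recovered 190 with 8 false calls for 4 batches. For 3 batches it recovered 179 with 4 false calls. That shift is near the largest difference of a named gene. The simulated differences were drawn independently around 0 with each gene's spread over 4 batches. They held no shift shared by a whole batch, such as the median of 0.76 in batch 4. False calls under such a shift, and recovery of smaller differences, were not tested. Positions are from GENCODE vM21, promoters from RefSeq (GRCm38.p6). Figures used matplotlib 3.10.9. A few genes are not reported here.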

Additional observations from a re-analysis of the deposited data

Results flagged for a closer look

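In each gene or list, the difference of 1 batch was compared with those of the other 3, and a batch is named where its gap to the nearest of the others took up nearly the whole range. This held for 24 of 317 genes and 2 of 25 list medians (all genes together included), and chance gives about 1 in 20. Batch 4 stood apart in 18 of the 24 genes, batch 2 in 4 and batch 3 in 2.

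The neuroblast list was higher in the CD140a- pair in batch 2 (1.41) and between -0.01 and 0.23 elsewhere, with Dlx1 (2.91) and Dlx5 (2.18) apart in the same batch. GRP2/MP3 2 was the highest of its batch for both, at 97.1 and 29.7 RPKM. Mbp (-1.62) and Dusp6 (0.49) also stood apart in batch 2.

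In batch 4 the list of alveolar macrophage and lung epithelium genes stood apart (1.504), as did its members Ear1 (1.74), Sftpc (1.504), Sftpa1 (1.32), Scgb1a1 (1.92) and Scgb3a2 (2.17). Other genes apart in batch 4 were Fut4 (1.67), Anpep (2.22), Il34 (2.35), Tlr9 (1.65), Ciita (1.09), Siglec1 (1.62), Mobp (1.76), Opalin (0.47), Cox4i2 (3.11), Myh11 (1.32), Hbb-y (1.47), Cd3d (1.78) and Aqp1 (1.45). BNAP/GRP1 4 held 13.6 RPKM of Scgb1a1, 10.99 of Tlr9 and 9.05 of Aqp1, while the other 3 libraries of batch 4 were below 1 for these genes. Its median level over the genes tested was 11.2 RPKM, and its part in these values was not tested.

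In batch 3, Cd74 (0.0193, against 1.79 to 2.10 elsewhere) and Slc2a5 (-0.14) stood apart.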

How the results depend on the processing

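The calls depended on the setting far more than the directions did. Over batches 1, 2 and 4 the counts of genes higher in the CD140a- and the CD140a+ pair (573 and 377) became 0 and 1 with median-of-ratios scaling, with quantile normalization, without a filter and with differences centred on each batch's median gene, and 0 and 0 at a mean RPKM of at least 5 or without the BNAP/GRP1 population. They were 323 and 133 with no replicate block, 402 and 180 with the replicate block over all libraries, 562 and 210 for a prior without a trend, 439 and 231 with a pseudocount of 0.1, 728 and 476 with the filter on 12 columns, 1 and 2 without PFMP, 88 and 12 without GRP3, and 266 and 129 without GRP2/MP3. Leaving out single libraries or batches gave 0 to 808 and 0 to 554. Centring and the 12-column filter were chosen after seeing the data.

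With all 4 batches, 30 of 33 alternatives gave at most 4 calls a direction, 3 genes being called higher in the CD140a+ pair with a pseudocount of 0.1 and 2 without GRP2/MP3. The exceptions left out a batch: 404 and 151 without batch 1, 383 and 128 without batch 2 and 573 and 377 without batch 3, a range of 0 to 573 and 0 to 377. No replicate block gave 0 and 0 calls there.

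A list median counted as moved if it shifted by at least the standard deviation of that list's own batch medians. Lists that varied most between batches could therefore shift further without being counted. List medians that moved over batches 1, 2 and 4 were, with a pseudocount of 0.1, 3.66 (myeloid factors), 4.35 (Fc receptor), 3.09 (Toll-like, 2.32 over 4 batches), 3.86 (border-associated macrophages), 2.83 (pericyte) and 2.13 (endothelium). At a mean RPKM of at least 5, where fewer genes were tested, they were 2.33 (endothelium), 1.17 (ependyma, 0.72 over 4 batches) and -3.51 (choroid plexus, -2.62 over 4 batches, against 0.42 over batches 1, 2 and 4 as reported). Quantile normalization gave -0.12 for ependyma. Without BNAP/GRP1 they were 3.06 (pericyte), 2.29 (endothelium) and 4.54 (erythroid), and without GRP2/MP3 0.81 (endothelium), 0.48 (ependyma) and 1.49 (erythroid). Leaving out single libraries or batches gave 1.25 to 2.17 (endothelium), 0.0399 to 0.47 (ependyma) and -0.32 to 0.19 (proliferation, -0.27 to 0.11 over 4 batches). Medians not counted as moved also ranged in these settings over batches 1, 2 and 4. Among them were microglia surface genes (3.48 to 5.56), cytokines (3.07 to 5.34), OPC membrane genes (-3.96 to -2.4) and astroglia (-0.36 to 0.38), the last with a change of sign.

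Of the named genes, only the sorting antigens, the network genes and those chosen by largest difference were followed over the settings. Among these the sign changed in 22 combinations of gene, fit and setting, all for Lhx6, Igf2bp3, Fut4 or Prom1, which were not called. Other genes named above were not followed for a change of sign. Leaving out single libraries or batches gave, over 4 batches and over batches 1, 2 and 4, -0.11 to 0.44 and -0.17 to 0.59 (Lhx6), -0.047 to 0.65 and -0.13 to 0.80 (Igf2bp3) and -0.11 to 0.66 and -0.0854 to 0.93 (Fut4), and -0.10 to 0.52 over batches 1, 2 and 4 (Prom1). Lhx6 was -0.28 and -0.35 without BNAP/GRP1 and -0.21 and -0.26 without GRP3, and Igf2bp3 -0.11 and -0.15 without PFMP and -0.0125 with quantile normalization. Prom1 was -0.00577 with centred differences and -0.0174 without BNAP/GRP1 over batches 1, 2 and 4. The cause was not tested. With unknown read totals, the error of low values cannot be given.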
